A study of Mus musculus with 2 samples.

Results

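Papain mRNA cluster 4 is 1 of 9 groups into which the authors divided the type 2 conventional DCs (cDC2s) of papain-immunized mice by their mRNA. It was taken here as every cell of the papain library with that cluster label, which gave 671 of the 6190 labelled papain cells (10.8%, exact Clopper-Pearson 95% interval 10.1 to 11.6%). The other 5519 labelled cells were used for comparison. The published study shows 5 cDC2 subclusters across naive and immunized mice, and their numbers need not match the 9 labels used here. The whole series holds 11067 cells from 2 CITE-seq libraries, in which the mRNA and 12 surface proteins of each cell were counted. The papain library was made from popliteal lymph nodes of C57BL/6N mice 1 day after 5 µg OVA plus 50 µg papain, a protease allergen, in the footpads, and the naive library from untreated mice of the same strain, with live MHCII-high CD11c+ B220- cells sorted for both. The study's methods give pooled skin-draining nodes as the source of the naive library, so lymph node site and immunization cannot be told apart. With 1 library per condition no value has a replicate and no test was made, and all intervals cover counting error only.

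Migratory cDC2s carry antigen from the skin to the draining lymph node, where they display peptides on MHC class II molecules to CD4+ T cells. MHC class II chains are made in the cell together with the invariant chain Cd74, are loaded with peptide in endosomes by the H2-DM proteins, and are transcribed under the coactivator Ciita. DCs that mature are known to lower MHC class II transcription while the proteins already made stay on the surface. CD301b, a C-type lectin encoded by Mgl2, marks the dermal cDC2s that this study set apart from other cDC2s.

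The protein measurements rest on antibodies that carry a DNA barcode of 15 bases, shown here for the markers used below because the barcode is what was counted. The entire run is the barcode.
CD301b: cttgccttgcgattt
MHC class II (I-A/I-E): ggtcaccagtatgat
CD172a: gattcccttgtagca
CD11b and CD24: tatatctttgccgca
The deposited list gives CD11b and CD24 the same barcode, and the ratio of summed CD24 to CD11b counts was between 0.840 and 0.863 in all 9 papain clusters. These 2 were therefore not read as separate proteins.

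Cluster 4 held mostly cells with a low CD301b antibody signal. Of its 671 cells the authors classed 527 as CD301blo (78.5%, 75.2 to 81.6%), 94 as CD301bint (14.0%) and 50 as CD301bhi (7.45%). Among the other labelled papain cells 17.1% were CD301blo, and in the other clusters this share ran from 5.49% in cluster 2 to 69.0% in cluster 9. Seen from the classes, cluster 4 took 35.9% of the CD301blo cells (33.4 to 38.4%), 5.15% of the CD301bint cells and 1.73% of the CD301bhi cells. The CD301b antibody value, a natural-log value normalised within each cell, had a median of 0.307 in cluster 4 (interquartile range 0.399), the lowest of the 9 clusters, and 1.68 in the other cells (interquartile range 1.31). That was a median of 2 antibody counts per cell against 98. The antibody data were not used by the authors to draw the mRNA clusters, so the low CD301b is a separate measure on the same cells, and 83.0% of cluster 4 cells lay below the lower quartile of the others. Mgl2 mRNA was near the limit of detection in both groups, at 2.23 CPM (counts per 1000000 UMIs) in cluster 4 and 0.83 in the others.

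**Figure D1:**
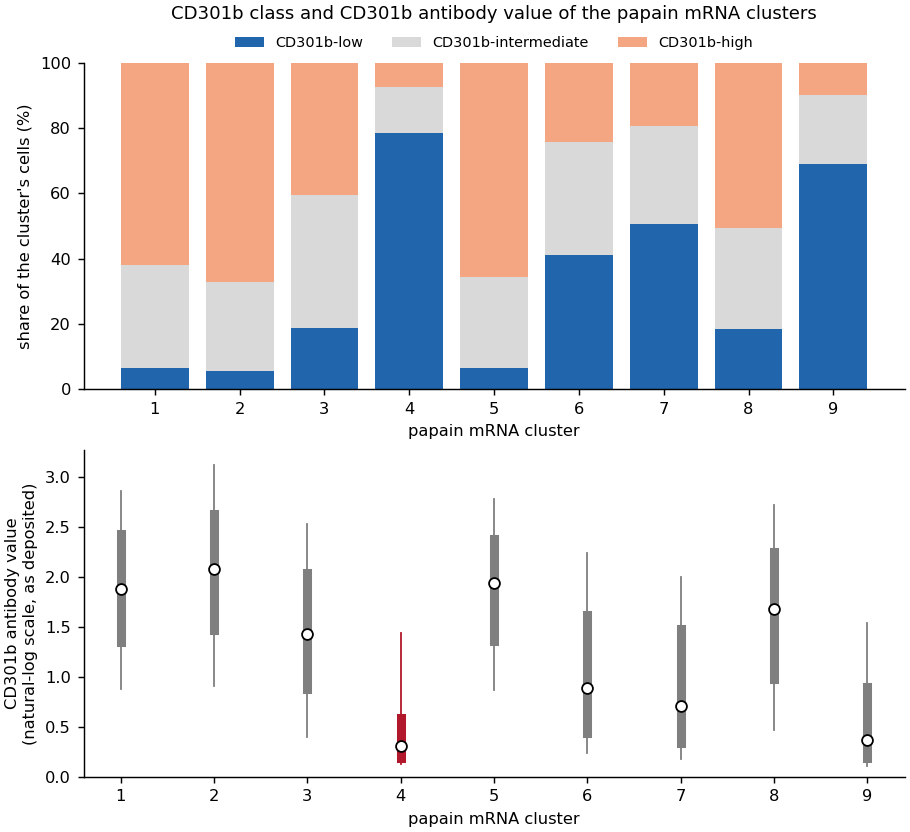
Top, share of cells in each CD301b class (%) for the 9 papain mRNA clusters; bottom, CD301b antibody value (natural-log scale), with circles at the median, thick bars from lower to upper quartile and thin bars from the 10th to the 90th percentile of cells. Cluster 4 has the highest CD301blo share (78.5%) and the lowest median (0.307).

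The label cDC2 was checked against marker genes. Sirpa, which encodes the cDC2 protein CD172a, was at 65.1 CPM in cluster 4 and 70.3 in the others. The median CD172a antibody value was 1.75 against 1.93. In counts the median was 40 against 129, and per 1000 antibody counts 20.3 against 33.3, both the lowest of any papain cluster. The study named cDC2s by surface markers including CD172a, so this antibody is no separate check of the label. The cDC1 markers Xcr1 and Clec9a had 4 and 1 UMIs in the whole cluster. The cDC1 list as a whole went the other way. It summed to 722 CPM in cluster 4 and 470 in the others, with at most 537 in any other cluster. Its member Irf8 had a log2 ratio of 0.99. Of the cDC2 marker genes, Clec10a had 0 UMIs, which allows up to 3 UMIs in 6269349, and Cd209a had 2, whereas Klf4, a transcription factor of cDC2s, was at 147 CPM against 107. Irf4, another such factor, was lower in cluster 4, at 41.2 CPM against 75.2 (-0.85, -1.03 to -0.68), and also within CD301blo cells (-1.01). Ccr7, the receptor that takes DCs to the lymph node, was at 4332 CPM and had UMIs in 99.6% of cells. Cluster 4 thus held transcripts of migratory cDC2s at the levels given, with the classical cDC2 lectins at or near 0, as they were in the other clusters (Clec10a at 0.13 CPM).

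Cluster 4 cells were shallow. Their median depth was 9131 UMIs and 2462 genes, against 15438 UMIs and 3414 genes in the others, and only cluster 8 was shallower, at 7249 UMIs. Their median antibody total was 2001 counts, the lowest of the 9 clusters, against 3908. Mitochondrial genes took a median of 3.07% of UMIs in cluster 4 and 2.69% in the others. A UMI of the T cell genes Cd3e or Trac was seen in 3.13% and 4.09% of cells. No barcode of cluster 4 was found in the naive library.

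Ratios below are between CPM of UMIs summed over cells, with 1 CPM added to both, and a gene was read when it had at least 50 CPM in the higher group. Of 2790 such genes, 267 were at least 1.5-fold higher in cluster 4 than in the other labelled cells (9.57% of genes) and 240 at least 1.5-fold lower (8.6%). The median log2 ratio over all of them was -0.04. The clusters were drawn from this mRNA, so these counts describe the cluster and support nothing further. Of the 267 genes, 221 were above each of the other 8 clusters, and of the 240 genes, 135 were below each of them. When each cell was thinned to 8856 UMIs and shallower cells were left out, which removed 294 cells of cluster 4, there were 296 higher and 256 lower genes, of which 242 and 212 were among those above.

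MHC class II presentation had the highest median of the gene lists with at least 3 members read. Of 12 members of at least 50 CPM, 10 were at least 1.5-fold higher and 0 lower, with a median log2 ratio of 1.98. H2-Ab1, the beta chain of I-A, was at 3149 CPM in cluster 4 and 463 in the others, a log2 ratio of 2.76 (2.74 to 2.79), and at 277 to 1679 CPM in the 8 other clusters. H2-Aa, the alpha chain of I-A, had 5446 CPM against 1338 (2.02, 2.01 to 2.04), and H2-Eb1, the beta chain of I-E, 5070 against 1152 (2.14, 2.12 to 2.15). The invariant chain Cd74 had 11703 CPM against 4403 (1.41, 1.40 to 1.42). The peptide editors followed the same direction, with log2 ratios of 1.93 for H2-DMa, 2.31 for H2-DMb1 and 2.77 for H2-DMb2. H2-Eb2 had 1.94 and Ifi30, a thiol reductase of endosomes, 0.71. Ciita itself was at 59.2 CPM against 8.58 (2.65, 2.48 to 2.82). The proteases Ctss and Lgmn, which cut the invariant chain and antigen, had log2 ratios of 0.24 and -0.20. Cluster 4 was the highest of the 9 clusters in 9 of the 10 higher genes, and for H2-DMa cluster 7 was above it, at 179 CPM against 144. Cluster 7 came next to cluster 4 in the others of these genes that are drawn below.

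**Figure D2:**
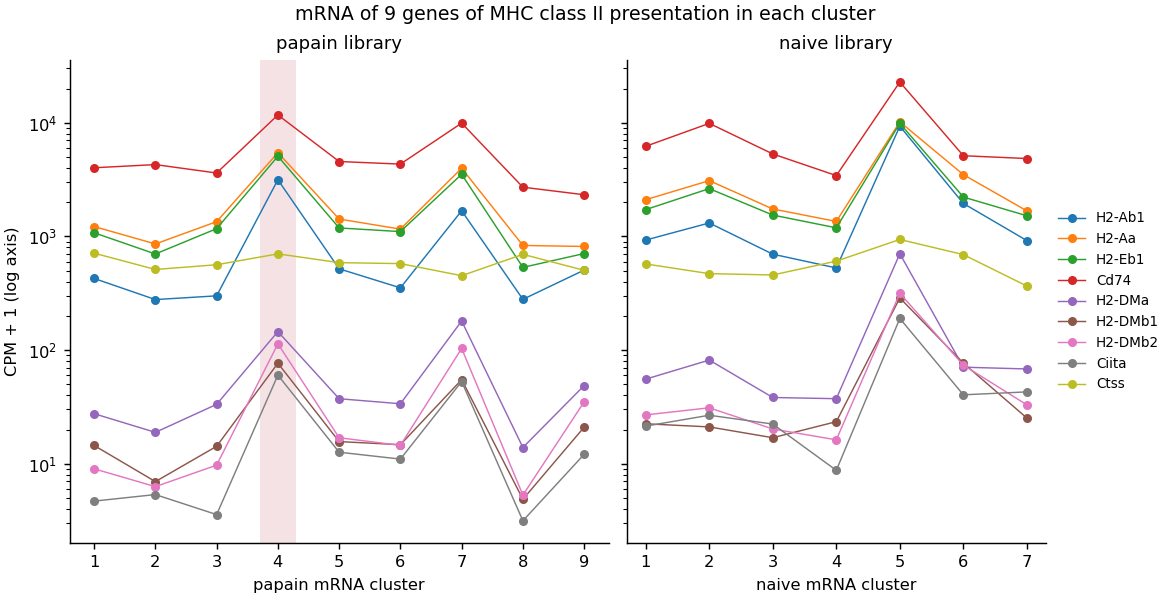
CPM plus 1 (log axis) of 9 genes of MHC class II presentation in the 9 papain clusters (left, cluster 4 shaded) and the 7 naive clusters (right); lines only join the points of a gene. Apart from Ctss, the genes stand highest in papain clusters 4 and 7 and in naive cluster 5.

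The genes of the MHC class II list lie mainly on chromosome 17, H2-Ab1 at chr17:34263227-34269418 and Ciita at chr16:10480014-10531064 (GRCm38.p6). RefSeq promoter windows, from 250 bases before to 50 bases after the gene start, were at hand for 11 of the 14 list genes. Promoters of MHC class II genes are known for a shared module with an X box and a Y box, so the windows were searched on both strands for TGATTGG, the core of the Y box, and for AACNGATG, a core of the X box. TGATTGG was found in 7 of the 11 genes and in 7.82% of all 32851 promoter windows. AACNGATG was found in 5 of the 11 genes and in 2.32% of all windows, and both motifs were found together in 4 of the 11 genes and in 61 of all windows (0.186%). The windows shown belong to the 5 genes of at least 50 CPM and at least 1.5-fold higher in cluster 4 that hold TGATTGG before the start used for the window, and capitals mark the matches. H2-Oa and H2-Ob hold it too and are not shown, as they were at 21.2 and 3.35 CPM. For H2-DMb2 the start used for the window lies inside the RefSeq gene, which begins at 34143229 on chromosome 17.
H2-Eb1, chr17:34305738-34305827, plus strand: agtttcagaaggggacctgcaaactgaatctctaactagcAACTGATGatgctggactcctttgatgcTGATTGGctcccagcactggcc
H2-Eb2, chr17:34325505-34325594, plus strand: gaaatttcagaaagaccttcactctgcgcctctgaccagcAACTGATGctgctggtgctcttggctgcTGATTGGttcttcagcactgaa
H2-DMb1, chr17:34153060-34153149, plus strand: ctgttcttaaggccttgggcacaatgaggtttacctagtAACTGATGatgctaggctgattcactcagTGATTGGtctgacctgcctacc
H2-DMb2, chr17:34145089-34145178, plus strand: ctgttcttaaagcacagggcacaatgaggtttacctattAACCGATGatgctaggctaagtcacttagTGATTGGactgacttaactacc
H2-Aa, chr17:34287852-34287941, minus strand: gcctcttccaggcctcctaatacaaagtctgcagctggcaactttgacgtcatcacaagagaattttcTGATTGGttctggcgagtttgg
The 2 motifs lay 20 or 21 bases apart in the 4 genes that hold both. In the others of this list the letters were not found or were found in 1 of the 2 forms, and a match is a stretch of letters, not a measured binding site.

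Within the cluster, MHC class II mRNA differed widely between cells and the MHC class II antibody count little. The 671 cells were put in order of their summed H2-Aa, H2-Ab1 and H2-Eb1 CPM and divided into 4 groups of 167 or 168. From the lowest to the highest group the median of this sum was 704, 4603, 15422 and 29890 CPM. The median MHC class II antibody count was 1746, 1826, 1840 and 1836 per cell. Median depth was 8787, 9158, 8981 and 9631 UMIs. The groups were cut by this mRNA, so its spread between them was built in, while their median antibody counts lay within a narrow range. Over single cells of the cluster, the mRNA sum ran from 526 to 32217 CPM between the 10th and the 90th percentile. The antibody count ran from 1525 to 2087.5 between the lower and the upper quartile, a narrower span of cells. Between the same quartiles H2-Ab1 ran from 113 to 5003 CPM per cell, H2-Aa from 1125 to 8829 and H2-Eb1 from 846 to 8396. All cells had been sorted for high surface MHC class II. The lowest group was near the other labelled papain cells, whose median sum was 832 CPM. From the lowest to the highest group the CD301blo share was 72.6% (65.2 to 79.2%), 75.6%, 82.1% and 83.8% (77.4 to 89.1%). The CD301bhi share was 11.3%, 8.93%, 4.17% and 5.39%. The CD301blo intervals of the lowest and the highest group overlap, which does not show that their shares are equal. The difference was not tested.

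**Figure D3:**
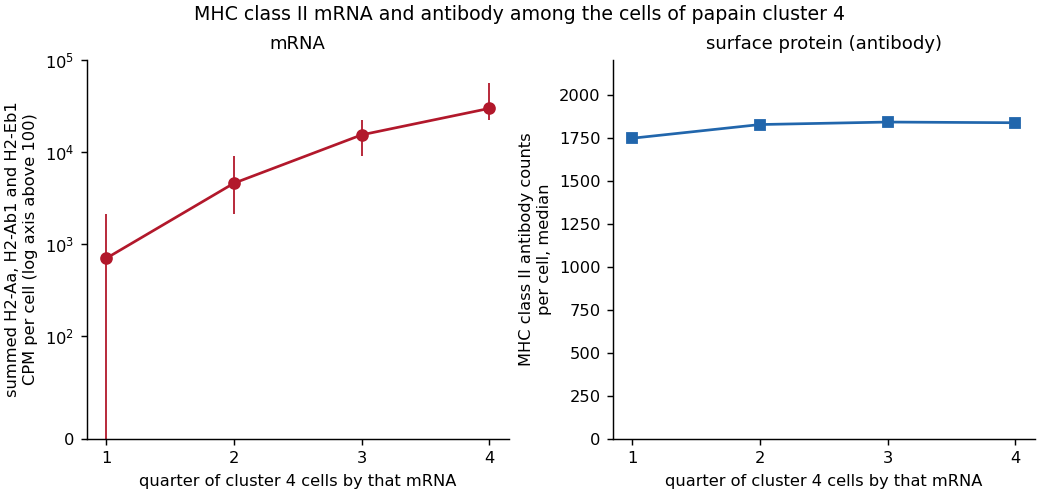
Cells of cluster 4 in 4 equal groups by MHC class II mRNA. Left, summed CPM of 3 MHC class II genes per cell (log axis above 100; point, median; line, lowest to highest cell); right, median MHC class II antibody counts per cell. The mRNA medians run from 704 to 29890 CPM and the antibody medians from 1746 to 1840 counts.

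Across clusters the protein also has to be read with its scale. Cluster 4 had the lowest MHC class II antibody count of the 9 clusters, a median of 1808 against 3261 in the other cells, and the highest normalised MHC class II value, 5.32 against 5.03. Per 1000 antibody counts of a cell, the median was 912 against 854. The normalised value is relative to the other antibodies of the same cell, and cluster 4 had the lowest antibody total. The same holds for the CD103, CD64, Ly-6C and XCR1 antibodies, which had their highest normalised medians in cluster 4 at medians of 0 to 3 counts.

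Genes of cluster 4 differed in how they went with MHC class II mRNA. Several of the same pathway went with it, and Ctss did so less, at 573 and 794 CPM in the lowest and the highest group. In the lowest and the highest MHC class II group Ciita was at 0.668 and 141 CPM, H2-DMb2 at 2.0 and 295 CPM and H2-Oa, a regulator of H2-DM, at 2.0 and 58.8 CPM. Others were at much the same level in both, as Ccnd2, cyclin D2, was at 208 and 176 CPM, Phf11a at 163 and 172 CPM, and Kctd14 at 70.1 and 84.3 CPM. Ms4a4c and Asprv1 lay between these patterns, at 22.0 and 80.1 CPM and at 44.1 and 142 CPM. In the opposite direction, Ccl22 was at 536 and 224 CPM, Cd200 at 566 and 307 CPM and Fscn1, fascin of DC processes, at 2584 and 1560 CPM. Ccr7 was at 4367 and 4039 CPM. The 168 cells with the least MHC class II mRNA, the lowest group, were also taken against the 5519 cells of the other clusters. This group had 243 genes at least 1.5-fold higher and 198 lower, of which 174 and 156 were among the 267 and 240 above. The overlap was built in at least in part, because these cells carry the cluster label drawn from the same mRNA.

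The 15 highest ratios of the cluster joined the MHC class II genes to others of varied function. Kctd14 was at 70.3 CPM against 5.78 (3.40, 3.22 to 3.57) and Ly6e, an interferon-inducible surface protein, at 77.7 against 6.55 (3.38, 3.22 to 3.54). Ms4a4c, also interferon-inducible, was at 51.0 CPM against 4.14 (3.34, 3.14 to 3.53). Clec7a, the beta-glucan receptor Dectin-1, was at 165 CPM against 21.6 (2.88, 2.77 to 2.98). The others were Asprv1 (3.16), a skin aspartic protease, Rnase6 (3.06), Lrp8 (3.01), Pcyt1a (2.60), an enzyme of phosphatidylcholine synthesis, Ccnd2 (2.51), Phf11a (2.4) and Grasp (2.32), beside H2-DMb2, H2-Ab1, Ciita and H2-DMb1. Phf11a has close paralogs, so its counts are uncertain. In all 15 genes cluster 4 was above each of the other clusters.

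**Figure D4:**
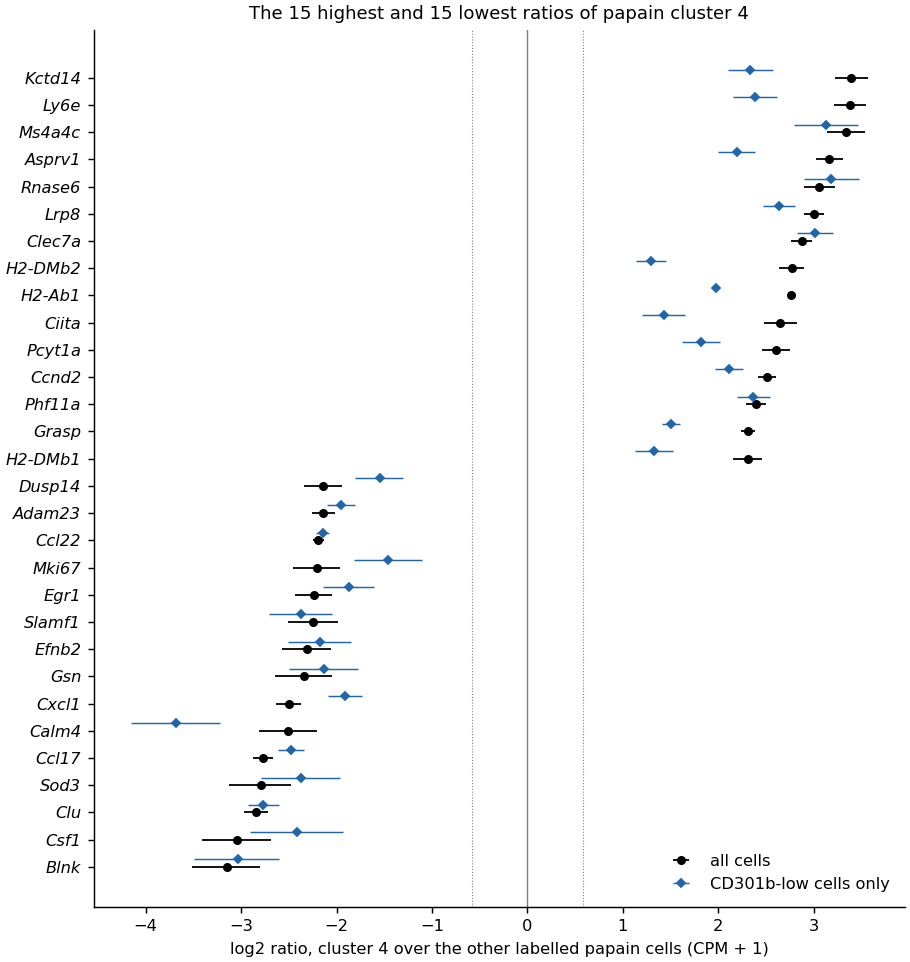
Log2 ratio of cluster 4 over the other labelled papain cells for the 15 highest and 15 lowest genes, over all cells (black) and within CD301blo cells only (blue), with 95% counting intervals; dotted lines mark 1.5-fold. Each gene keeps its direction in CD301blo cells.

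Many of these genes came from a part of the cells. Ly6e had UMIs in 22.1% of cluster 4 cells (4.38% of the others), Ms4a4c in 17.1% (3.24%), Asprv1 in 24.4% (6.12%) and Clec7a in 41.1% (14.6%). In cDC1s of the papain library, a type with its own programme, Asprv1 had UMIs in 63.0% of cells and Ly6e in 21.7%, whereas Ms4a4c had UMIs in 3.83%, at a median depth of 12399 UMIs. Of the Ly6e UMIs of cluster 4, 50% were in 23 cells, and of the Asprv1 UMIs in 22 cells. For Ccr7 it took 218 cells to hold as large a share, and for all genes together 271 cells. Cells with a Ly6e UMI held a Ms4a4c UMI in 35.8% of cases and cells without one in 11.9%, at median depths of 9380 and 9031 UMIs. For Asprv1 in place of Ly6e these shares were 18.9% and 16.6%.

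Interferon-stimulated genes were higher as a list. Of 13 members of at least 50 CPM, 8 were at least 1.5-fold higher and 0 lower, with a median of 0.70. Irf7, a transcription factor of this response, was at 63.5 CPM against 16.8 (1.86, 1.70 to 2.01), Oasl2 at 60.3 against 17.8 (1.70, 1.54 to 1.86) and Isg15, a ubiquitin-like protein, at 602 against 199 (1.59, 1.54 to 1.64). Isg15 was at 41.3 to 298 CPM in the other clusters. Mx1, an antiviral GTPase of the same response, was at 56.6 CPM against 66.3 (-0.22). The chemokine Cxcl10 was at 69.9 CPM against 32.1, but 2 cells held 50% of its UMIs in the cluster, and within CD301blo cells its ratio was -0.08.

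Chemokines were lower. Of 8 members of at least 50 CPM, 5 were at least 1.5-fold lower and 1, Cxcl10, higher, with a median of -1.31. Ccl17 and Ccl22, ligands of Ccr4 on T cells, were at 115 CPM against 793 (-2.77, -2.88 to -2.67) and 447 against 2044 (-2.19, -2.24 to -2.14). Ccl22 was at 800 to 3379 CPM in the 8 other clusters, so cluster 4 was below each of them. Ccl17 was lower still in cluster 7, at 98.3 CPM. Cxcl1 and Cxcl2, which attract neutrophils, had log2 ratios of -2.50 and -1.76. In cluster 6 they were at 68.7 and 32.5 CPM, below the 77.7 and 49.1 CPM of cluster 4. Cxcl2 was also lower in cluster 7, at 33.4 CPM. Ccl5, which attracts T cells, was at 6190 CPM against 7759 (-0.33). The other lowest genes included Blnk (-3.15), an adaptor of B cell receptor signals, and Csf1 (-3.04), the growth factor of macrophages. The rest were Clu (-2.84), Sod3 (-2.79), Calm4 (-2.50), Gsn (-2.34), Efnb2 (-2.31), Slamf1 (-2.24), Egr1 (-2.24), Mki67 (-2.21), Adam23 (-2.14) and Dusp14 (-2.14). Csf1 was lower still in cluster 7, at 3.67 CPM against 8.29 in cluster 4, and Sod3 was close, at 10.6 against 10.8. Egr1 was at 34.9 CPM in cluster 4, 7.24 in cluster 6 and 12.1 in cluster 7. Mki67 was at 20.1, 8.81 and 15.6 CPM in these clusters. Dusp14 was lower in cluster 6, at 9.59 CPM against 30.6 in cluster 4. All these levels were under 50 CPM. The remaining genes named here were lowest in cluster 4.

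Genes of DC maturation as a whole were at the level of the other clusters. Of 23 members, 4 were at least 1.5-fold higher and 1 lower, with a median of 0.06, beside -0.04 over all genes read. The 4 were Cd200 (1.79, 1.73 to 1.85), a ligand that restrains myeloid cells, Icosl (1.48, 1.39 to 1.56), the ligand of Icos on T cells, Tnfrsf4 (1.40, 1.34 to 1.46), which encodes OX40, and Traf1 (0.72, 0.69 to 0.75). Ccr7 had 4332 CPM against 3143 (0.46, 0.44 to 0.48), higher than in each other cluster (711 to 4193 CPM) but under 1.5-fold. Cd80 and Cd86, ligands of Cd28, had log2 ratios of 0.14 and -0.27. Cd40, through which T cells signal to DCs, was at 490 CPM against 741 (-0.59, -0.65 to -0.54). Within CD301blo cells this ratio was 0.01.

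Il2, the cytokine at the centre of the study, was not detectably different. It had UMIs in 19 of the 671 cells (2.83%, 1.71 to 4.39%) and in 6.83% of the other cells, at median depths of 9131 and 15438 UMIs. After thinning, these shares were 3.23% and 3.72%. In CPM it was at 3.03 against 4.31, a log2 ratio of -0.40 with an interval of -0.92 to 0.13. Langerhans cells of the same library had Il2 UMIs in 9.08% of cells, at a median depth of 18290 UMIs. After thinning their share was 4.15%, and their Il2 level was 4.47 CPM. The cDC1s of this library had Il2 at 10.1 CPM (6.86 to 14.3), with UMIs in 4.68% of cells and in 2.96% after thinning. Il2ra, a chain of the IL-2 receptor, was at 168 CPM against 125 (0.43, 0.33 to 0.52). Among cytokines Il1b had 754 CPM against 365 (1.04, 1.00 to 1.09), and 2.09 within CD301blo cells.

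**Figure D5:**
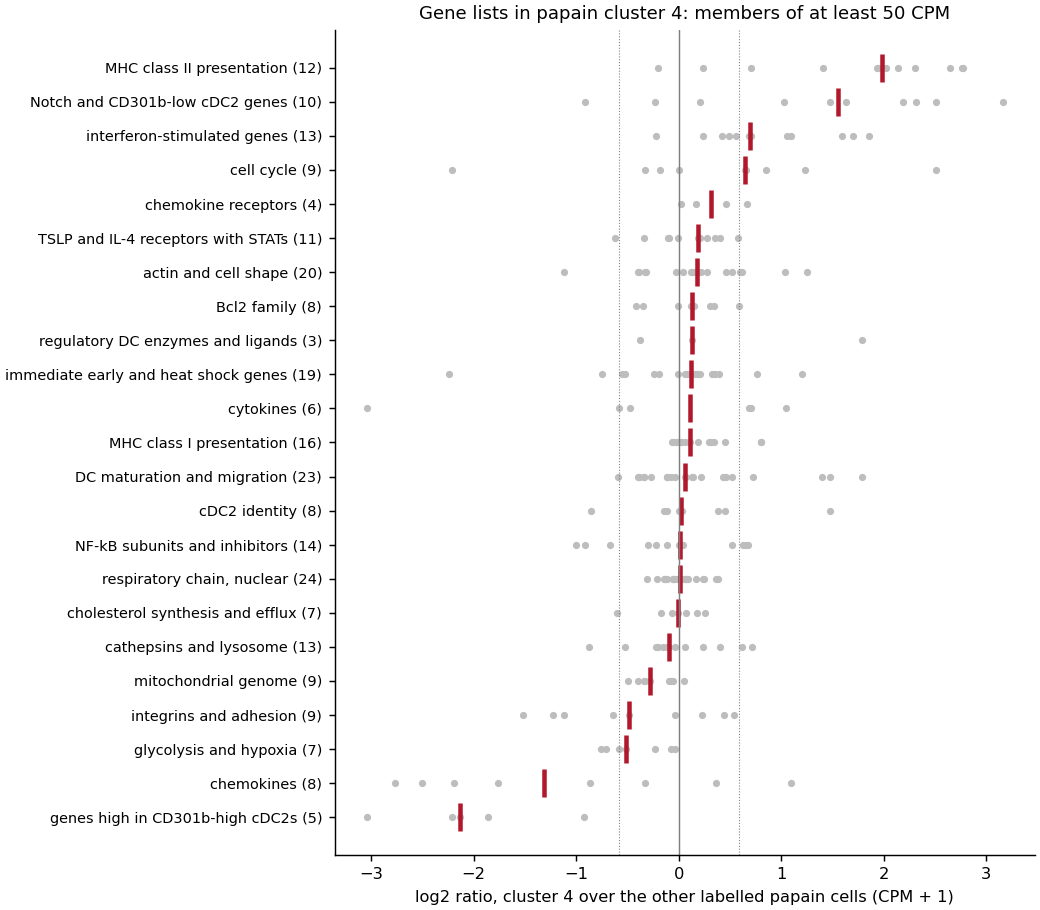
Log2 ratio of cluster 4 over the other labelled papain cells for gene lists with at least 3 members of at least 50 CPM (number in brackets); grey points are genes, red bars the list medians and dotted lines 1.5-fold. MHC class II presentation is highest (1.98) and the list of genes high in CD301bhi cells is lowest (-2.13), the latter list drawn in part from these libraries.

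Among the remaining lists, G1 cyclins differed from the proliferation marker Mki67. Ccnd1 had 208 CPM against 88.2 (1.23, 1.14 to 1.31), Ccnd2 188 against 32.1 (2.51, 2.41 to 2.61) and Cdk6 133 against 73.4 (0.85), and in these 3 genes cluster 4 was above each other cluster, whereas Mki67 had 20.1 CPM against 96.5 (-2.21). Of 9 cell cycle genes in all, 5 were higher and 1 lower. Integrin and adhesion genes had 4 of 9 members lower and 0 higher, among them Cd81 (-1.52), Itgav (-1.22) and Cd9 (-1.12), and a median of -0.48, which was -0.05 within CD301blo cells. Of 20 actin and cell shape genes 4 were higher, such as Coro1a (1.25), which binds actin in leukocytes, and Ezr (1.04), and 1 lower, the intermediate filament gene Vim (-1.12). Of 16 MHC class I genes 2 were higher, the peptide transporters Tap1 (0.81) and Tap2 (0.80), a share near the 9.57% of all genes. The nuclear genes of the respiratory chain had 0 of 24 past 1.5-fold in either direction and those of the mitochondrial genome 0 of 9. Glycolysis genes had 3 of 7 lower, with a median of -0.51, and of 0.05 within CD301blo cells. Counts in the remaining lists were small, beside 9.57% of all genes higher and 8.6% lower, and nothing particular to a list is read from them. Cathepsin and lysosome genes had 2 of 13 higher and 1 lower, NF-kB genes 3 of 14 higher and 3 lower, immediate early and heat shock genes 2 of 19 each way, and TSLP and IL-4 receptor genes 0 of 11 higher and 1 lower. Cholesterol genes had 1 of 7 lower, Bcl2 family genes 1 of 8 higher, cDC2 identity genes 1 of 8 each way, cytokines 3 of 6 higher and 1 lower, chemokine receptors 1 of 4 higher and regulatory DC genes 1 of 3 higher, the last being Cd200. The lists of C-type lectins, Fc receptors, Toll-like receptors and fatty acid binding had at most 2 such members each.

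The list of Notch and CD301b-low genes, part of which was picked from these libraries, had 7 of 10 members higher and 1 lower. It held Asprv1, Ccnd2, Grasp, Tctex1d2 (2.19), Zmynd15 (1.63), Esam (1.48), an adhesion molecule of Notch-dependent cDC2s, and Runx3 (1.03). Notch2 itself was at 60.9 CPM against 52.5 (0.21), Rbpj, its DNA-binding partner, at 48.5 against 57.2 (-0.23), and its ligand Jag1 at 83.6 against 158 (-0.91). Of 5 genes high in CD301bhi cells, 5 were lower, beside 8.6% of all genes. This list too was drawn in part from these libraries, and cluster 4 held mostly CD301blo cells, so the outcome was largely built in. The list summed to 124 CPM in cluster 4 and to 83.2 CPM in the lowest other cluster.

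The same ratios were read within a CD301b class, so that the classes make up cluster 4 and the comparison alike. Within the CD301blo class, 527 cells of cluster 4 were set against 943 of the other clusters, and 10.7% of 2771 genes were at least 1.5-fold higher and 7.29% lower. Of the 267 higher genes, 209 were higher there too and 265 kept their direction, the exceptions being Cxcl10 and Tubb2b. Of the 205 lower genes with at least 50 CPM in this class, 136 were lower there too and 4 had the opposite direction, Cd40, Nup62, Pvr and Sdc4. H2-Ab1 had a log2 ratio of 1.98 within CD301blo cells, Clec7a 3.01, Ms4a4c 3.13, Ccl22 -2.15 and Ccl17 -2.48. The MHC class II list had a median of 1.31. In the 94 CD301bint cells of the cluster 182 of the 267 genes were higher and 148 of the 240 lower, where 9.09% of all genes read were higher and 7.97% lower. In its 50 CD301bhi cells these numbers were 125 and 128, beside 7.41% and 7.97% of all genes read. The cells of each class were given their cluster label by the same mRNA. The 267 and 240 genes were called with these cells included. Their recurrence within a class was thus built in at least in part, and it describes the cluster only.

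The profile of cluster 4 over the 2790 genes was most like those of clusters 5 and 7, with Pearson correlations across genes of 0.924 and 0.921 on the log2 scale. Genes are not replicates and clusters differ in depth, so this only serves to choose neighbours. Against cluster 5, 8.94% of genes were at least 1.5-fold higher in cluster 4 and 10.3% lower, led by Kctd14 (3.26), Clec7a (2.93) and Ms4a4c (2.88) and by Blnk (-3.30) and Csf1 (-3.25). Against cluster 7, which was next to cluster 4 in MHC class II mRNA, 12.9% were higher and 7.93% lower. There the highest were Ly6e (4.02), Rnase6 (4.01), Irf7 (3.97), Ms4a4c (3.94) and Isg15 (3.84), and of 13 interferon-stimulated genes read 12 were higher and 0 lower, with a median of 1.65. Of 12 MHC class II genes 4 were higher and 0 lower, with a median of 0.47. H2-Ab1 was among those higher (0.91, 0.87 to 0.94), whereas H2-DMb1 (0.48), H2-DMb2 (0.14) and Ciita (0.19) were under 1.5-fold. The lowest against cluster 7 were Calm4 (-3.26), Gyg (-2.47), Efnb2 (-2.45), Khdc1a (-2.41) and Cd8a (-2.20). Ccl17 was close in both clusters (0.23), and Ccl22 was lower in cluster 4 (-0.84). Interferon-stimulated genes thus set cluster 4 further from cluster 7 than MHC class II genes did by these medians.

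In the naive library, cluster 5 was most like papain cluster 4, with a Pearson correlation across genes of 0.347 between their log2 ratios to the rest of their own library. It held 246 cells, of which 58.1% were CD301blo. Its ratios were 3.31 for H2-Ab1, 3.11 for Ciita, 3.77 for Clec7a, 3.98 for Ms4a4c, 2.99 for Ly6e and -2.92 for Ccl22, each in the direction of papain cluster 4. They were opposite for Ccr7 (-1.56), Cd200 (-0.68), Icosl (-0.63), Tnfrsf4 (-2.29) and Il2ra (-2.67), and near 0 for Ccnd2 (-0.10) and Phf11a (0.12). In naive cluster 5, 23% of genes were at least 1.5-fold higher and 21.2% lower than in the other naive clusters. There were 83 genes higher in both, 31.1% of the papain list and 12.1% of the naive list, and 105 lower in both, 43.8% and 16.6%, while 55 had opposite directions. The MHC class II antibody count was lowest in papain cluster 4 and in naive cluster 5, where the mRNA was highest. Its median was 3620 in naive cluster 5 against 6924 over all labelled naive cells. Papain cluster 7, next in this mRNA, was at 2884, above papain clusters 3 (2606.5) and 6 (2353.5). Per 1000 antibody counts of a cell it was 721 in naive cluster 5 and 909 over all, whereas papain cluster 4 had the highest papain median, 912.

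Markers of other cell types were read beside these ratios. The list of 10 B cell genes summed to 51.8 CPM in cluster 4 and 11.8 in the others, with 6.59 to 69.9 in the 8 other clusters. Cd79b had UMIs in 12.8% of cells (1.88% of the others, 1.70% of cDC1s) and Ighm in 15.8%, while Cd79a, Ighd and Cd22 were at 0 UMIs. The list of 15 monocyte or macrophage genes summed to 199 CPM against 67.8 (30.2 to 198 in the other clusters), with Ms4a4c among them and Fcgr1 and C1qb at 0. Lyz2 had 64.6 CPM but UMIs in only 15 cells. The cDC1 list summed to 722 CPM against 470 and the plasmacytoid DC list to 883 against 615, both with Irf8, at 441 CPM against 222. The T cell list summed to 184 CPM against 155, the list of NK or innate lymphoid genes to 23.9 against 6.72, of which Rora made 23.4, the Langerhans cell list to 59.3 against 81.1, the cDC2 list to 258 against 255 and the migratory DC list to 10337 against 10826. Lists for neutrophils, mast cells, stroma, keratinocytes and erythroid cells each summed to 11.5 CPM or less, but few of their genes are listed in the files (1 of 8, 1 of 8, 2 of 10, 3 of 8 and 2 of 7), so these sums do not show that such cells were absent. Cells that held a UMI of a B cell or monocyte gene were then left out, which kept 363 cells of cluster 4 (54.1%) and 3370 others (61.1%). Ms4a4c, one of the highest ratios of the cluster, was among the genes used to leave cells out. There were 223 higher and 214 lower genes, of which 212 and 192 were among those above. The part of the other marker lists in the ratios was not tested.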

How the data were processed

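The authors aligned the reads with Cell Ranger 3.0.1 to mm10 and made the cell labels in Partek Flow. Deposited expression values are log2 of CPM plus 1. UMIs were recovered from the value of 1 UMI per cell, and 100% of values up to 50 UMIs were whole within 0.02. Deposited antibody values are on a natural log (ln) scale, and the deposited antibody totals and numbers of expressed genes are counts. The total that the authors deposited per cell is a score that adds up log2 values, and their mitochondrial percent refers to it, so both were recomputed from UMIs (2682 to 57150 per papain cell). The clusters were the authors' labels at resolution 1.0. No doublet caller was run. CPM have exact Poisson intervals, shares Clopper-Pearson intervals and ratios exact conditional binomial intervals (95%). Only the ratio intervals were tried on simulated data. Those were summed UMIs drawn from the counting model that the intervals assume, so variation between cells was left out. Named genes were the 15 highest and 15 lowest ratios, the 5 highest and lowest against each of 2 nearest clusters, the 4 largest ratios of each of 27 lists, and Mgl2, Cd40, Il2, Il2ra, Cd80, Cd86 and Ccr7; other list or marker members are named where a count rests on them, after their values were seen. Members, lists and the rule were chosen with earlier results of these data known. Coordinates and promoters are from RefSeq on GRCm38.p6, and 115 of 119 named genes matched by symbol. Alternatives added after seeing the data left out cells with B cell or monocyte UMIs and kept cells low in MHC class II mRNA. Python 3.11.15, NumPy 2.4.6, pandas 2.3.3 and SciPy 1.17.1 were used.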

Additional observations from a re-analysis of the deposited data

How the results depend on the processing

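No paired analysis was possible because each condition has 1 library. The floor set the number of genes: with 10 CPM in place of 50 there were 591 higher and 814 lower genes, and with no floor 1263 and 2178, since more genes were read. Under the 10 other settings and the 2 added later the counts stayed within 1.5 times of 267 and 240. The median of the MHC class II list was between 1.31 and 2.05 under each alternative except the cells low in MHC class II mRNA, which were chosen by it and for which it was not computed. Defined by an antibody value under the median of labelled papain cells, 91.9% of cluster 4 (95% interval 89.6 to 93.9%) was CD301b-low. Among cells of at least the 10th percentile of depth, cluster 4 made up 6.77% (6.12 to 7.46%), since the setting leaves out shallow cells. As log2 of counts per 1000 plus 1, the CD301b antibody difference was -3.66, on another scale than -1.38, and the differences of CD103 (-0.37), CD11c (-0.25), CD64 (-0.26), Ly-6C (-0.11) and XCR1 (-0.18) turned negative. By Spearman correlation cluster 7 was nearest and cluster 5 next. The cell cycle list had a median of -0.070 with no floor. In CD301blo cells only, Cxcl10 was at -0.083 and Cd40 at 0.0071. In cells low in MHC class II mRNA, Cxcl10 was at -1.14 and Il1rn at -0.20. The cause was not tested. Depth limits Il2 and Mgl2, and values between mice cannot be known from 1 library.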
